A study of Homo sapiens with 18 samples.

Results

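The ATP-binding cassette (ABC) exporters of drugs and conjugates described here are 9 genes, ABCC1, ABCC2, ABCC3, ABCC4, ABCC5, ABCC10, ABCB1, ABCB6 and ABCG2, of 33616 genes that have a transcript assigned to them alone on the array. Each gene is represented by its transcript, and ABCC1, which has 2, by the one with the higher mean over all arrays. RNA from 2 human colon cancer cell lines, HCT116 and HT-29, was measured on 18 Affymetrix whole-transcriptome arrays, 3 in each of 6 groups. HCT116 and HT-29 cells were treated with erastin (ER), a small molecule that blocks cystine uptake and induces ferroptosis, for 4 h or 24 h, or were left untreated. Per the study's methods the dose was 2.5 µM, ER was dissolved in DMSO, and the 3 replicates were independent experiments. The same 3 untreated arrays of a line are the reference at both times, and neither a vehicle nor a time in culture is stated for it. Each line is a single tumor line of the cell bank. Values are the normalized log2 signals that the authors deposited, and a fold change is 2 to the power of a difference between them. They reach 19.9, above the 16 that a scanner of 16 bits can give on a log2 scale, so the size of a fold rests on a scale that is not fully known. In bulk RNA, less RNA per cell and fewer cells that hold it cannot be told apart.

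ABC exporters are membrane proteins that use ATP to pump their substrates out of the cytosol. Several of the ABCC proteins carry molecules joined to glutathione, glucuronic acid or sulfate, which is how intestinal and liver cells dispose of bile pigments, bile acids and many drugs, while ABCB1 and ABCG2 carry many drugs unchanged. In the intestinal epithelium ABCC2, ABCB1 and ABCG2 lie on the side facing the lumen, and ABCC1 and ABCC3 on the side facing the blood. ER lowers the supply of cystine and with it that of glutathione, the partner molecule that several of these exporters use.

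The 250 bases before a start site of 2 of the genes are shown because ABCC2 was called after ER treatment and ABCB6 had the next smallest p among the genes in the sequence table. They are from RefSeq, build GRCh38.p14. The ABCC2 stretch is chr10:99782390-99782639 on the plus strand, and that of ABCB6 is chr2:219218959-219219208 on the minus strand. Both run 5′ to 3′ on the strand of the gene, and capitals mark motif matches.
ABCC2: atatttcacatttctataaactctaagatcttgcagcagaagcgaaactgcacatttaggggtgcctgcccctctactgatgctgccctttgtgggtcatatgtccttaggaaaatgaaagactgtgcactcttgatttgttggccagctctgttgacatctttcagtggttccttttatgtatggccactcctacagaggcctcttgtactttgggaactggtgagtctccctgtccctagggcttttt
ABCB6: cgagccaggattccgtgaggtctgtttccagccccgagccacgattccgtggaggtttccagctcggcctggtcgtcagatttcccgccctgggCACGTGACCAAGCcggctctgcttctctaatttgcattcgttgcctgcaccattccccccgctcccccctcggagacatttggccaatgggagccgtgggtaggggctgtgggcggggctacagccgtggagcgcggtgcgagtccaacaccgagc
The motifs searched on both strands were the antioxidant response element core TGACNNNGC, the AP-1 site TGANTCA, the C/EBP-ATF composite site TGATGNAA, the E-box CACGTG and the cyclic AMP response element TGACGTCA. Of 35116 stretches of the same length, 10.9%, 6.57%, 3.14%, 6.34% and 1.65% held a match, in that order. The ABCC2 stretch held 0 matches. That of ABCB6 held an E-box from position -156 and an antioxidant response element core from position -152, counted from the start site, and these share bases. In front of some but not all of their start sites, ABCC10 (chromosome 6) held both of these motifs too, ABCB1 (chromosome 7) an AP-1 site and ABCG2 (chromosome 4) an E-box. ABCC4 (chromosome 13) held the antioxidant response element core, and ABCC5 (chromosome 3) held 0 matches. The table holds 7 of the 9 genes, without ABCC1 and ABCC3. A match is a description of letters, not a bound site.

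The primers of the study's RT-PCR for 2 of the genes, which the methods say were purchased, show the members it picked for a second assay. Its readings were not analysed here.
ABCC1 forward primer: ccgtgtactccaacgctgacat
ABCC1 reverse primer: atgctgtgcgtgaccaagatcc
ABCB6 forward primer: gttcttcaacgcctggtttggc
ABCB6 reverse primer: agcacgacgaaacttggttctcc

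The arrays of HT-29 replicate 1 stood apart from those of replicates 2 and 3, so the values of the exporters are also given with them apart. EPCAM, KRT8, KRT18 and KRT19, markers of epithelium, were at 13.2 to 18.3 on the log2 scale on every array, and CDH1, which encodes E-cadherin, at 10.04 to 13.34. Of 9 measured epithelial markers, 3 (EPCAM, CDH1 and VIL1) were higher in HT-29 replicate 1 than in replicates 2 and 3 without overlap. Of the same 9, 1 was lower (CDX2) and 5 overlapped. EPCAM was at 15.51 to 15.87 in replicate 1 against 14.26 to 15.24, and CDH1 at 13.07 to 13.34 against 10.04 to 12.41. CDX2, an intestinal transcription factor, was lower in HT-29 replicate 1 without overlap. It was at 8.0 to 8.2 there, 8.59 to 9.48 in replicates 2 and 3 and 8.38 to 9.48 in HCT116. VIL1, which encodes villin, was at 7.96 to 8.88 in HT-29 replicate 1, 5.48 to 6.48 in replicates 2 and 3 and 5.05 to 6.19 in HCT116. The further intestinal markers CDX1, CDH17, MUC2, FABP1 and SI lay between 3.76 and 6.54, around the array medians of 5.44 to 5.61. The mean of 10 markers of intestinal differentiation was 8.78 to 9.81 on the 3 arrays of HT-29 replicate 1, 6.61 to 7.13 on the 6 of replicates 2 and 3 and 5.49 to 5.87 on the 9 HCT116 arrays. Of the 10, 6 were higher in replicate 1 than in replicates 2 and 3 without overlap, and 4 (TFF3, MUC2, FABP1 and SI) overlapped. LYZ, which encodes lysozyme, was at 16.94 to 17.48, 10.12 to 11.77 and 5.54 to 6.13 in the same order. Apart from LYZ, which is also on that list, the leukocyte markers PTPRC, CD3E and CD68 did not stand higher in HT-29 replicate 1, at 5.92 to 7.67 against 5.95 to 8.39 in replicates 2 and 3. The means of 4 fibroblast and 3 endothelial markers overlapped between the sets of arrays.

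At 24 h of ER treatment, 2 of the 9 exporters were higher in HCT116 cells as differentially expressed transcripts (DETs), ABCC3 and ABCC2, and 0 were lower. Following the methods, a transcript was a DET when its signal differed by 1.2-fold or more, up or down, with a p not above 0.005 before adjustment, here in a limma fit of the 9 arrays of a cell line over 135750 transcripts. Of all transcripts 1.24% were DETs in this comparison. All transcripts, here and below, include 98455 with no gene assigned, whereas each exporter is a single-gene transcript, so the 2 sets are unlike. After Benjamini-Hochberg adjustment over all transcripts, ABCC3 was the exporter with an adjusted p under 0.05, as were 0.0081% of all transcripts. An unadjusted p under 0.05 by limma was found for 3 exporters, ABCC2, ABCC3 and ABCB6. The share of all transcripts with such a p is not given, so counts at this threshold, here and below, are a description only. The treated and untreated arrays did not overlap for 4 exporters (ABCC2, ABCC3, ABCB1 and ABCB6), and for 12.8% of all transcripts. The median log2 fold change of the 9 was 0.23, against -0.02 over all transcripts. The plot of log2 signals by hours of ER treatment holds every value.

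**Figure D1:**
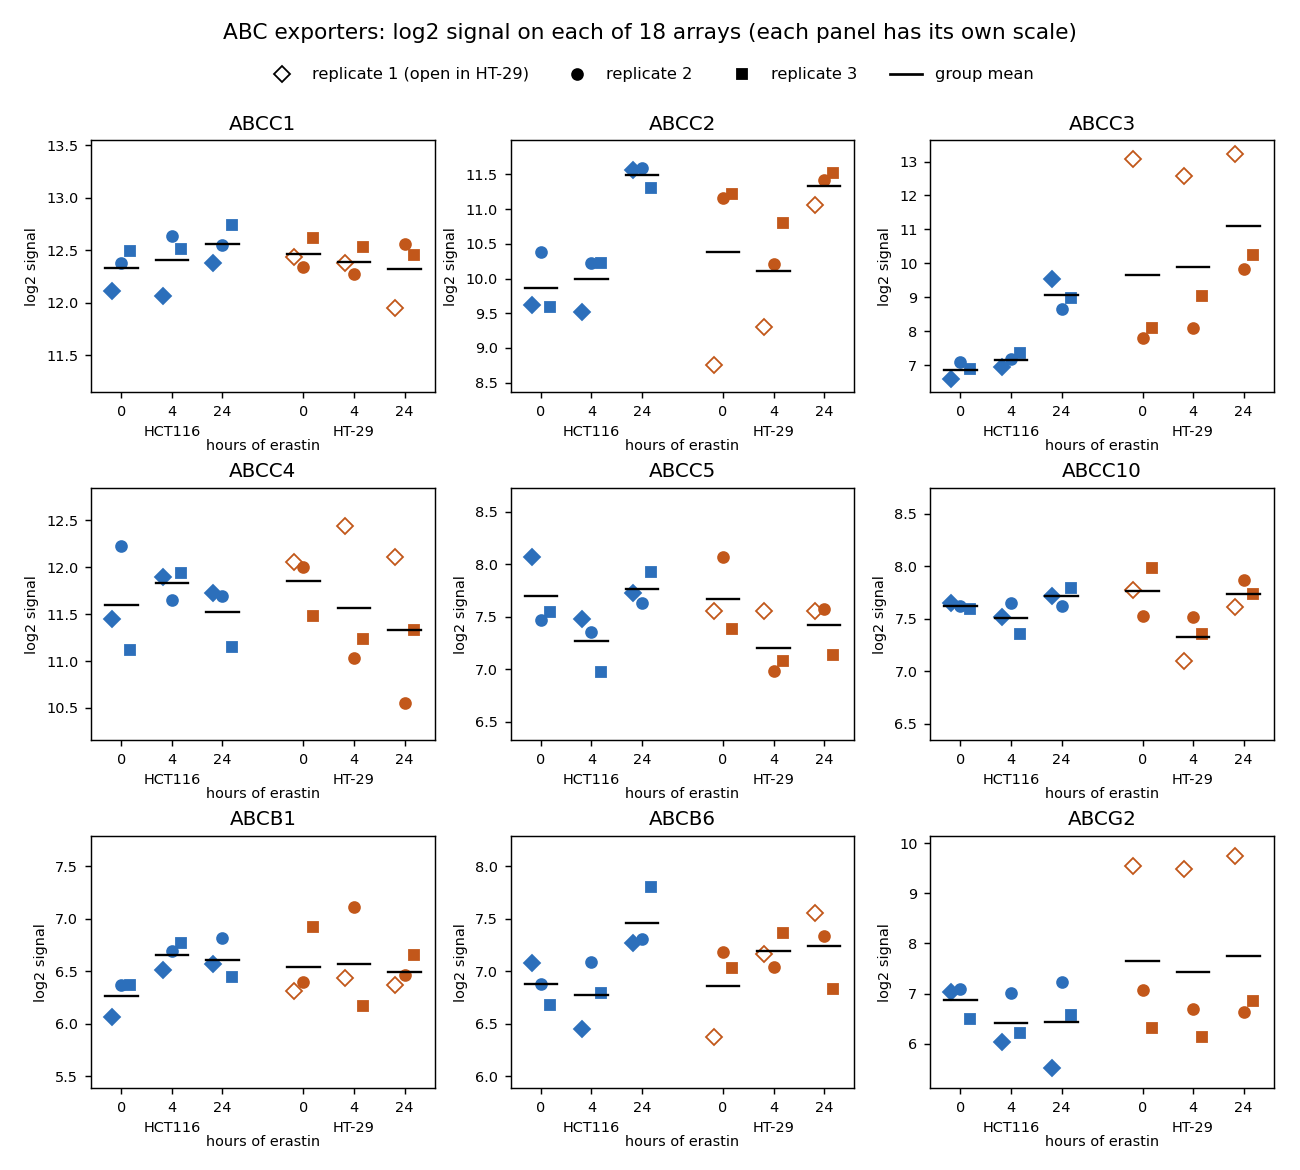
Log2 signal (y axis) of each exporter on each array against hours of ER treatment (x axis, 0 is untreated), HCT116 in blue and HT-29 in orange, with bars at the group means and HT-29 replicate 1 as open diamonds. ABCC2 and ABCC3 in HCT116 stand higher at 24 h than at 0 h and 4 h without overlap, and the open diamonds of ABCC3 and ABCG2 lie far above all other points.

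ABCC3 carries glucuronides and bile acids across the blood-facing membrane, and its gene lies at chr17:50634881-50692253 (GRCh38.p14). In HCT116 cells its log2 signal was 9.54, 8.66 and 8.98 at 24 h of ER and 6.59, 7.08 and 6.88 untreated. Every treated array lay more than 1 log2 unit above every untreated one. The log2 fold change was 2.21 (SE 0.25, n = 3 arrays per group, 95% confidence interval 1.67 to 2.75), a 4.62-fold higher signal, with an adjusted p of 0.0148 by limma. That adjusted call was lost without untreated replicate 1, 2 or 3 (adjusted p = 0.123, 0.0758 and 0.102) and without 24 h replicate 3 (adjusted p = 0.0658), while ABCC3 was a DET in each of these fits. It was also lost with the methods' t-test (adjusted p = 0.647) and with the 6 arrays compared alone (adjusted p = 0.15 by limma). In 1 fit of all 18 arrays, which shares 1 spread between the lines, ABCC3 was not a DET (adjusted p = 0.847 by limma). With each line fitted on its own, the SE of ABCC3 at 24 h was 0.25 in HCT116 and 1.43 in HT-29.

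ABCC2 carries glutathione and glucuronide conjugates into the lumen or the bile, and its loss causes a harmless jaundice in people. Its gene lies at chr10:99782640-99852594, directly after the stretch printed above. The log2 signal in HCT116 cells was 11.56, 11.59 and 11.30 at 24 h of ER, against 9.62, 10.39 and 9.60 in untreated cells. The treated arrays were close together and all above the untreated ones. ABCC2 rose by 1.62 (SE 0.27, 95% confidence interval 1.03 to 2.20), a 3.07-fold higher signal, with an unadjusted p of 5.15e-05 and an adjusted p of 0.13 by limma. In a fit of the 36176 transcripts of a single gene alone its adjusted p was 0.0278, against 0.684 with the methods' t-test, 0.407 with the 6 arrays compared alone and 0.599 with all 18 arrays in 1 fit, and ABCC2 was a DET in each.

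ABCB6 transports porphyrins, the precursors of heme, and its gene lies at chr2:219209772-219218958. Its log2 signal in HCT116 cells was 7.27, 7.30 and 7.80 at 24 h of ER, against 7.08, 6.88 and 6.68 untreated. The groups did not overlap, but the gap between them was smaller than the spread within either. The difference of 0.58 (SE 0.23, 95% confidence interval 0.07 to 1.09) was not a DET (adjusted p = 0.532 by limma). ABCB1, the drug efflux pump also called P-glycoprotein, had 6.57, 6.82 and 6.44 at 24 h, against 6.06, 6.37 and 6.37 untreated. Its arrays too did not overlap, with a difference of 0.34 (SE 0.20, 95% confidence interval -0.09 to 0.77) that was not a DET.

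The other genes lie at chr16:15949143-16143053 (ABCC1), chr13:95019835-95301451 (ABCC4), chr3:183919934-184017884 (ABCC5), chr6:43427541-43451994 (ABCC10), chr7:87503017-87713295 (ABCB1) and chr4:88090264-88231626 (ABCG2). For the 5 exporters not yet described the HCT116 groups at 24 h overlapped and the intervals of the difference included 0. ABCC1, an exporter of glutathione and its conjugates found in most tissues, was at 12.38, 12.55 and 12.74 at 24 h, against 12.11, 12.38 and 12.49 untreated. The interval of its difference, -0.24 to 0.70 on the log2 scale, ended below that of ABCC2. ABCC4, which exports cyclic nucleotides and prostaglandins, was at 11.72, 11.69 and 11.15 at 24 h, against 11.44, 12.22 and 11.11 untreated, a difference of -0.07 (95% confidence interval -0.68 to 0.53). The difference was 0.07 (-0.43 to 0.56) for ABCC5, another exporter of cyclic nucleotides, and 0.09 (-0.30 to 0.49) for ABCC10, which can carry taxanes. ABCG2, an exporter of urate, porphyrins and drugs, had 5.51, 7.24 and 6.57 at 24 h, against 7.04, 7.09 and 6.48 untreated. Its treated arrays spread so widely that a difference of -0.43 came with an interval of -1.28 to 0.41.

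**Figure D2:**
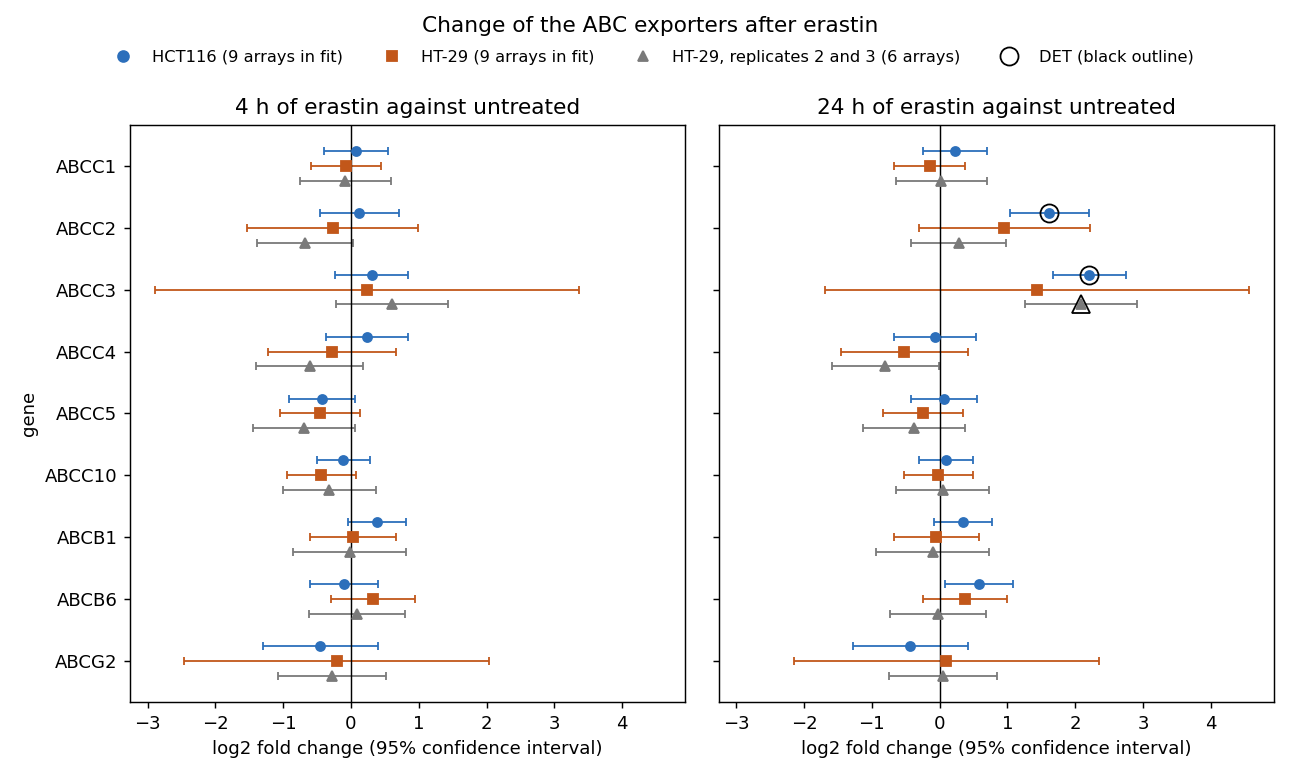
Log2 fold change (x axis) with its 95% confidence interval for each exporter (y axis) at 4 h and at 24 h of ER against untreated, in HCT116 (blue), in HT-29 (orange) and in HT-29 replicates 2 and 3 alone (grey). The DETs, outlined in black, are ABCC2 and ABCC3 in HCT116 and ABCC3 in HT-29 replicates 2 and 3 alone, all at 24 h, and the intervals of ABCC3 and ABCG2 over all HT-29 arrays are the widest.

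Whether the exporters had moved by 4 h was asked next. In HCT116 cells 0 of 9 were DETs at 4 h, with 0 at an unadjusted p under 0.05 by limma and 0 DETs by the methods' t-test, where 0.29% of all transcripts were DETs. ABCC3 was at 6.95, 7.18 and 7.35 at 4 h and ABCC2 at 9.52, 10.23 and 10.23, both overlapping with their untreated values. The differences from untreated were 0.31 (95% confidence interval -0.23 to 0.85) for ABCC3 and 0.12 (-0.46 to 0.71) for ABCC2. They were 0.08 for ABCC1, 0.23 for ABCC4, -0.11 for ABCC10, -0.10 for ABCB6 and -0.45 for ABCG2, all with intervals that included 0. Only ABCB1 had no overlap at 4 h, at 6.51, 6.70 and 6.76 against 6.06, 6.37 and 6.37 untreated (10% of all transcripts had none), and its difference of 0.39 was not a DET (adjusted p = 1 by limma).

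Between 24 h and 4 h of ER, 2 of 9 exporters were again DETs in HCT116 cells, both higher at 24 h, where 2.04% of all transcripts were DETs and 0.0832% passed the adjusted threshold. This comparison shares its 24 h arrays with the one against untreated cells. ABCC3 was higher by 1.90 (SE 0.25, adjusted p = 0.0223 by limma) and ABCC2 by 1.49 (SE 0.27, adjusted p = 0.0726). An unadjusted p under 0.05 was found for 4 exporters, with ABCB6 at 0.68 (adjusted p = 0.316 by limma) and ABCC5 at 0.49 (adjusted p = 0.468) beside the DETs. The log2 differences of the others, 0.15 for ABCC1, -0.31 for ABCC4, 0.21 for ABCC10, -0.05 for ABCB1 and 0.02 for ABCG2, had intervals that included 0. The adjusted call of ABCC3 was lost without 4 h replicate 1, 2 or 3 (adjusted p = 0.125, 0.111 and 0.115) and without 24 h replicate 1 or 3 (adjusted p = 0.0615 and 0.0611). In 1 fit of all 18 arrays, which shares 1 spread between the lines, neither gene was a DET between 24 h and 4 h.

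In HT-29 cells, in the fit over all arrays without replicate as a term, 0 of 9 exporters were DETs at 4 h or at 24 h, with 0 at an unadjusted p under 0.05 by limma and 0 DETs by the methods' t-test at either time. For all transcripts the share of DETs was 0.223% at 4 h and 0.377% at 24 h, and 0.00221% passed the adjusted threshold at 24 h. Between 24 h and 4 h, 0 of 9 were DETs in limma and by the methods' t-test, and 0 had an unadjusted p under 0.05 by limma, where 0.906% of all transcripts were DETs and 0.0228% passed the adjusted threshold. ABCC10 was the one exporter with no overlap at 4 h (7.86% of all transcripts had none), at 7.10, 7.52 and 7.36 against 7.78, 7.52 and 7.99 untreated, with the closest arrays equal to 2 decimals. At 4 h the difference of ABCC5 was -0.43 in HCT116 (95% confidence interval -0.92 to 0.07) and -0.46 in HT-29 (-1.05 to 0.13), and neither was a DET. The other HT-29 differences at 4 h were -0.07 for ABCC1, -0.27 for ABCC2, 0.24 for ABCC3, -0.28 for ABCC4, -0.44 for ABCC10, 0.03 for ABCB1, 0.33 for ABCB6 and -0.21 for ABCG2. Between 24 h and 4 h they were 1.23 for ABCC2 (95% confidence interval -0.03 to 2.49), 1.2 for ABCC3 and 0.41 for ABCC10. For ABCC1, ABCC4, ABCC5, ABCB1, ABCB6 and ABCG2 they were -0.07, -0.24, 0.21, -0.08, 0.05 and 0.31, in that order. All these intervals included 0. The 24 h and 4 h arrays did not overlap for 2 exporters, ABCC2 and ABCC10, both higher at 24 h. The share of all transcripts without overlap is not given for this comparison. At 24 h the arrays of all 9 overlapped with the untreated ones, where 9.67% of all transcripts did not.

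ABCC3 in HT-29 cells rested on which replicates were used and on whether replicate was a term of the fit. In replicate 1 its log2 signal was 13.09 untreated, 12.59 at 4 h and 13.22 at 24 h of ER. In replicates 2 and 3 it was 7.79 and 8.11 untreated, 8.08 and 9.03 at 4 h, and 9.82 and 10.25 at 24 h. The 24 h arrays of replicates 2 and 3 thus lay above their other arrays, whereas the 3 arrays of replicate 1 were all high. The differences between 24 h and untreated arrays of the same number were 0.14, 2.03 and 2.14 in replicates 1, 2 and 3. Over all 9 arrays the difference at 24 h was 1.44 with an SE of 1.43 and an interval of -1.69 to 4.56. With replicate as a term in an alternative fit of the same 9 arrays, this 1.44 was a DET (adjusted p = 0.875 by limma). In replicates 2 and 3 alone it was 2.09 (SE 0.37, 95% confidence interval 1.26 to 2.92), a DET with an adjusted p of 0.79 by limma, from 2 arrays per group. In that fit 0.501% of all transcripts were DETs at 24 h, and 1.3% at 4 h, where 0 exporters were. Between 24 h and 4 h the same arrays gave 1.48 for ABCC3 (SE 0.37, adjusted p = 0.378 by limma), again a DET, as were 1.16% of all transcripts.

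ABCC2 in HT-29 cells differed more between the single arrays of replicate 1. In that replicate it was at 8.76 untreated, 9.30 at 4 h and 11.06 at 24 h, a difference of 2.31 between the single arrays at 24 h and untreated. In replicates 2 and 3 it was at 11.16 and 11.21 untreated, 10.21 and 10.80 at 4 h, and 11.42 and 11.52 at 24 h. These replicates were thus near the 24 h level already when untreated, and differed by 0.26 and 0.30 from it within their numbers. Over all arrays the difference at 24 h was 0.96 (SE 0.58, 95% confidence interval -0.30 to 2.22), and in replicates 2 and 3 alone it was 0.28 (SE 0.32, -0.42 to 0.99). Without untreated replicate 1 the difference was 0.15. ABCB6 likewise differed by 1.18 between the single arrays of replicate 1, and by 0.15 and -0.20 in replicates 2 and 3.

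The remaining exporters gave no DET in HT-29 cells with or without replicate 1. ABCC4 was the one with the largest negative difference at 24 h, at 12.11, 10.56 and 11.33 against 12.06, 12.01 and 11.48 untreated. Its difference was -0.52 over all arrays (SE 0.43) and -0.80 in replicates 2 and 3 (SE 0.36, adjusted p = 1 by limma). ABCC5 in replicate 1 had 7.55 on all 3 arrays, while in replicates 2 and 3 it ranged from 6.99 to 8.07. ABCC1 stayed between 11.95 and 12.62 on all 9 HT-29 arrays, ABCC10 between 7.10 and 7.99 and ABCB1 between 6.17 and 7.12. Their differences at 24 h were -0.15, -0.02 and -0.05, that of ABCC5 was -0.25 and that of ABCB6 was 0.38, with intervals that included 0. For ABCG2 the interval at 24 h was -2.15 to 2.35 over all arrays and -0.74 to 0.84 in replicates 2 and 3.

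Whether the cell lines responded differently was tested as the HCT116 response minus the HT-29 response, in a limma fit of all 18 arrays. At both times 0 of 9 exporters were called, and no p before adjustment was under 0.05. Among all transcripts 0.277% passed the thresholds of a DET at 4 h and 0.322% at 24 h, and 0% had an adjusted p under 0.05 at 24 h. The difference of the responses at 24 h was 0.77 for ABCC3 (SE 1.64, 95% confidence interval -2.68 to 4.22) and 0.66 for ABCC2 (SE 0.70, -0.80 to 2.12). It was 0.37 for ABCC1, 0.45 for ABCC4, 0.31 for ABCC5, 0.12 for ABCC10, 0.39 for ABCB1, 0.20 for ABCB6 and -0.53 for ABCG2. At 4 h it was 0.15, 0.39, 0.07, 0.51, 0.04, 0.32, 0.36, -0.43 and -0.24 for ABCC1, ABCC2, ABCC3, ABCC4, ABCC5, ABCC10, ABCB1, ABCB6 and ABCG2, in that order, and the intervals at both times included 0. With replicates 2 and 3 alone for HT-29, the difference for ABCC3 was 0.12 (SE 0.44, -0.82 to 1.05). For ABCC2 it was then 1.33 (SE 0.42, 0.45 to 2.21), just short of the DET threshold (adjusted p = 0.804 by limma). A DET in HCT116 and none in HT-29 therefore does not show that the lines differ in either gene.

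The levels of the exporters in the sets of arrays are a description without a test, since per the methods each cell line was normalized on its own, and it is not known whether that holds for the deposited table. ABCC3 was at 12.59 to 13.22 in HT-29 replicate 1, at 7.79 to 10.25 in replicates 2 and 3 and at 6.59 to 9.54 in HCT116. ABCG2 was at 9.49 to 9.74, 6.14 to 7.07 and 5.51 to 7.24 in the same order. The means of replicate 1 lay above those of replicates 2 and 3 by 4.12 log2 units for ABCC3 and by 2.98 for ABCG2. ABCC4 was at 12.06 to 12.44 in replicate 1 and at 10.56 to 12.01 in replicates 2 and 3, next to each other without overlap, and HCT116 cells spanned 11.11 to 12.22. These 3 of 9 exporters had no overlap between replicate 1 and replicates 2 and 3, all higher in replicate 1. Of 36176 single-gene transcripts 8.84% had none, and 4.3% had none and were higher in replicate 1. Of the 10 markers of intestinal differentiation 6 were higher in the same arrays, and their part in these levels was not tested.

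**Figure D3:**
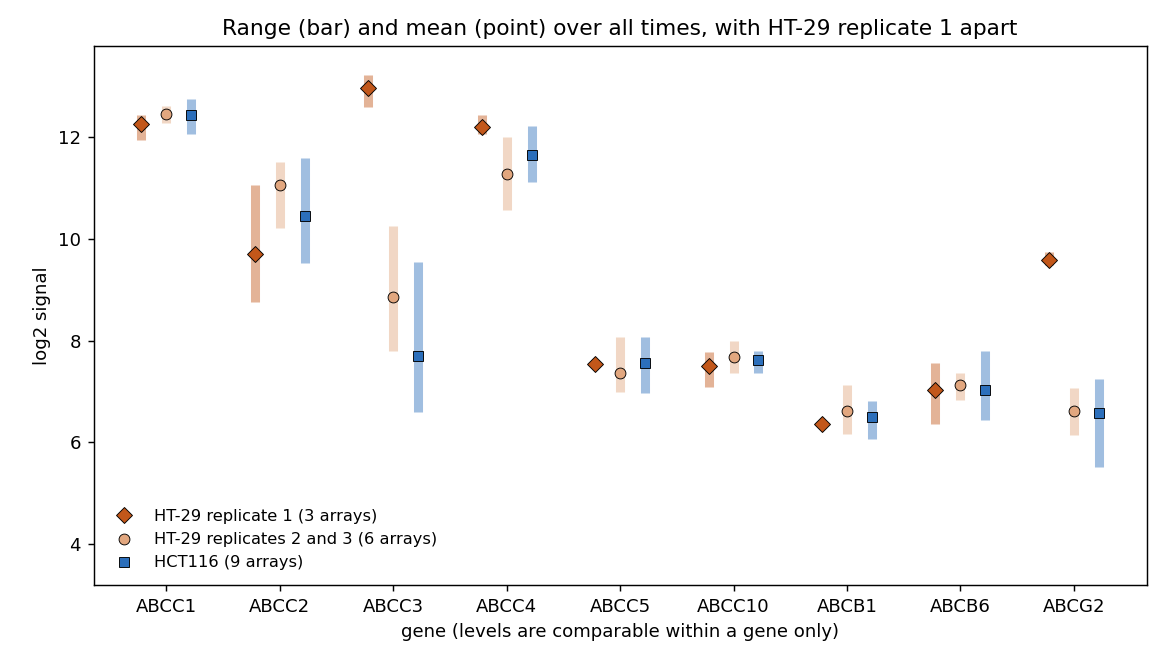
Range (bar) and mean (point) of the log2 signal (y axis) of each exporter (x axis) over all times in HT-29 replicate 1 (3 arrays), HT-29 replicates 2 and 3 (6 arrays) and HCT116 (9 arrays). ABCC3 and ABCG2 in HT-29 replicate 1 stand above the other arrays, by 4.12 and 2.98 log2 units in the mean against replicates 2 and 3, and levels of different genes are not comparable.

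The other 6 exporters overlapped between the sets of arrays. ABCC2 had the lower mean in replicate 1, 9.71 against 11.05 in replicates 2 and 3, with 10.45 in HCT116. The means of ABCC1, ABCC5, ABCC10, ABCB1 and ABCB6 differed by at most 0.25 log2 units between replicate 1 and replicates 2 and 3. In HCT116 the order over time was the same for ABCC2 and ABCC3, with 24 h above 4 h and untreated, and untreated and 4 h did not differ beyond their spread. Over all arrays the values of 3 exporters spanned more than 2 log2 units, 6.63 for ABCC3, 4.23 for ABCG2 and 2.83 for ABCC2. The genes with the most similar pattern over the 18 arrays, among 23954 transcripts above the median signal, were HSPG2 and BHLHE41 for ABCC3 (Pearson r = 0.965 and 0.957), GIPC2 and GASK1B for ABCG2 (0.957 and 0.936) and SLC9D1 and SLC7A8 for ABCC2 (0.899 and 0.895). For ABCC3 and ABCG2 the 3 arrays of HT-29 replicate 1 are the far points of these correlations, and arrays of one line may share a normalization of their own.

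The gene lists here and below were chosen with earlier results of these data known. Of all transcripts 1.24% were DETs in HCT116 and 0.377% in HT-29 at 24 h, and 0.29% and 0.223% at 4 h. From 4 h to 24 h the shares were 2.04% and 0.906%. Of the rest of the ABC superfamily, 36 of 39 listed genes were measured, and 0 were DETs at 4 h or 24 h in either cell line by limma, with 4 at an unadjusted p under 0.05 in HCT116 and 3 in HT-29 at 24 h. Between 24 h and 4 h there was 1 in HT-29, ABCG1, an exporter of cholesterol, higher by 0.81 (SE 0.23, adjusted p = 0.52 by limma; 0.66 in replicate 1 and 0.89 in replicates 2 and 3, where it was not a DET), and 1 in HCT116, ABCA7, a lipid transporter, higher by 0.96 (SE 0.26, adjusted p = 0.216), both named after their values were seen. Of 17 measured glutathione transferases, 1 was a DET in HCT116 at 24 h, MGST3 of the microsomal family, higher by 0.81 (SE 0.20, adjusted p = 0.333 by limma), and 0 in HT-29, where 2 had an unadjusted p under 0.05. The median of the 17 was 0.28 in HCT116 and 0.30 in HT-29, against -0.02 and 0.02 over all transcripts, and 0.45 in HT-29 replicates 2 and 3, against 0.03. Of 20 listed glucuronosyltransferases and sulfotransferases 15 were measured, and 0 of these were DETs at 24 h by limma, with 2 at an unadjusted p under 0.05 in HCT116 and 0 in HT-29. UGT1A1, UGT1A6, UGT1A8, UGT1A10 and SULT1A2 had no transcript assigned to them alone, so the count does not cover them. The 4 measured scaffold genes that anchor exporters in the membrane gave 0 DETs and 0 unadjusted p under 0.05 in both lines, and of 16 measured uptake carriers SLC15A1, the intestinal peptide carrier, was higher in HT-29 at 24 h by 1.32 (SE 0.37, adjusted p = 1 by limma). It differed by 1.24 in replicate 1 and by 1.35 in replicates 2 and 3 (SE 0.34). In replicates 2 and 3 alone 2 more genes of these lists were DETs at 24 h, SLCO2A1, a prostaglandin carrier (1.28, SE 0.34, adjusted p = 0.961 by limma), and ABCE1, a factor of ribosome recycling (-1.48, SE 0.35, adjusted p = 0.891). In that fit 0.501% of all transcripts were DETs at 24 h.

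For the lists that follow, the shares of all transcripts that were DETs at 24 h were again 1.24% in HCT116 and 0.377% in HT-29. Among 9 genes of glutathione supply, 3 were DETs in HCT116 at 24 h, all higher. These were CHAC1, an enzyme that breaks down glutathione (2.90, SE 0.26, adjusted p = 0.00314 by limma), SLC7A11, the cystine carrier that ER blocks (2.88, SE 0.54, adjusted p = 0.162), and GCLC, the catalytic subunit of the first enzyme of glutathione synthesis (1.08, SE 0.19, adjusted p = 0.148). In HT-29 CHAC1 was the 1 DET of the list (3.34, SE 0.28, adjusted p = 0.00652 by limma), with 3.66 in replicate 1 and 3.17 in replicates 2 and 3 (SE 0.36, adjusted p = 0.0863 by limma). SLC7A11 was not a DET there, at 1.98 (SE 1.07), and differed by 3.69, -0.19 and 2.45 in replicates 1, 2 and 3. GCLC had 0.26 (SE 0.40) in HT-29. For the difference between the lines at 24 h, 0 of these 9 genes had an unadjusted p under 0.05 by limma. Of 9 measured genes used as a readout of NRF2, the transcription factor of the antioxidant response, 2 were DETs in HCT116 and 1 in HT-29, all higher. NQO1, a quinone reductase, was a DET in both lines. It was higher by 1.79 in HCT116 (SE 0.20, adjusted p = 0.0148 by limma) and by 1.45 in HT-29 (SE 0.29, adjusted p = 0.727). In HT-29 it differed by 0.67 in replicate 1 and by 1.84 in replicates 2 and 3 (SE 0.31). HMOX1, heme oxygenase, was higher in HCT116 by 1.44 (SE 0.35, adjusted p = 0.309 by limma). Over all HT-29 arrays HMOX1 was not a DET, at 1.19 (SE 0.50). It had 0.43 in HT-29 replicate 1 and 1.56 in replicates 2 and 3 (SE 0.40, adjusted p = 0.943 by limma), a DET in replicates 2 and 3 alone. It stands also on the list of heme genes, where FECH, which inserts iron into heme, was the other HCT116 DET of 10 (0.64, SE 0.19, adjusted p = 0.397). Of 14 measured transcription factors linked to exporters, ATF4 was higher (0.95, SE 0.20, adjusted p = 0.226 by limma) and VDR, the vitamin D receptor, lower (-1.02, SE 0.30, adjusted p = 0.404) in HCT116. In HT-29 there were 0 DETs and 2 genes at an unadjusted p under 0.05, the same ATF4 with 1.00 (SE 0.30) and VDR with -0.74 (SE 0.32, adjusted p = 1 for both by limma). ATF4 differed there by 1.17 in replicate 1 and 0.91 in replicates 2 and 3, and VDR by -1.77 and -0.22. In the test of the difference between the lines at 24 h 0 of the 14 were called, with 0 at an unadjusted p under 0.05 by limma. NFE2L2, which encodes NRF2, had 0.26 (SE 0.35) in HCT116 and -0.07 (SE 0.47) in HT-29.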

How the data were processed

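RNA of 18 cell cultures was measured on Affymetrix arrays. The authors deposited 1 table of normalized log2 signals per transcript. Per the methods they made such values by RMA with the oligo package for each cell line separately, averaged probe sets to transcripts and took log2, and they also used the maker's TAC software. Which of these made the table is not given in the sources used here. No value above background per spot was used. Of 138745 features, 2995 controls were left out. Gene names came from the platform annotation, checked through 25516 gene IDs in RefSeq.

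Groups came from the sample titles and the dose from the methods. The fits used limma 3.58.1 in R 4.3.3 (lmFit, eBayes) on the 9 arrays of a line, and all 18 for the difference between lines, with Benjamini-Hochberg adjustment over 135750 transcripts. The fit was tested on simulated data. Members, lists and tests were chosen with earlier results of these data known. By the rule for named genes all 9 exporters are given in every comparison over all arrays, and of each other list up to 3 DETs per line at 24 h with the smallest p. Array number limits the precision: the median SE was 0.24 in HCT116, 0.29 in HT-29 and 0.39 for the difference. The alternatives, 11 settings and leaving out each of 18 arrays, were another test, sets of arrays, a replicate block, scalings, filters and means per gene. Data handling used the R package data.table (version 1.17.8), pandas 2.3.3 and numpy 2.4.6 under Python 3.11.15, and figures matplotlib 3.10.9.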

Additional observations from a re-analysis of the deposited data

How the results depend on the processing

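The count of DETs among the 9 exporters moved in 5 instances and stayed within 1.5 times in the other 156. In most of the 156 the count was 0 in both fits, where a bound of 1.5 times says little. Leaving out an array of a group that is not compared keeps the difference and changes only its spread. With a replicate block, ABCC3 made it 1 in HT-29 at 24 h (adjusted p = 0.875 by limma), where ABCC2 had an unadjusted p under 0.05 without being a DET, and with replicates 2 and 3 alone it was 1 there and 1 between 24 h and 4 h. With all 18 arrays in 1 fit, which shares 1 spread between the lines, HCT116 had 1 at 24 h (ABCC2) and 0 between 24 h and 4 h, and ABCC3 had an adjusted p of 0.847 at 24 h by limma. The adjusted call of ABCC3 in HCT116 at 24 h held under 7 of the 10 settings that leave out no array (lost with the methods' t-test, the 6 arrays compared alone and all 18 arrays in 1 fit), and ABCC2 gained one with single-gene transcripts (adjusted p = 0.0278), with gene means (0.025) and, between 24 h and 4 h, with the block (0.0447). Deviations of same-numbered arrays correlated at -0.148 to 0.5 in HT-29 and -0.071 to 0.245 in HCT116. Those of replicate 1 did so above 0.1 in every pair of groups (0.105 to 0.5 and 0.168 to 0.207), those of replicates 2 and 3 not in every pair, and 1 of 9 and 4 of 9 arrays correlated best with their own number in both other groups, so the block was kept as an alternative only. The methods' t-test gave 2 DETs in HCT116 at 24 h, as did the main fit.

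Changes of direction were found for exporters that were not DETs, and their cause was not tested. With gene means ABCC1 had 0.06 in HT-29 at 4 h. With replicates 2 and 3 alone ABCC1 had 0.03, ABCC10 0.05 and ABCB6 -0.02 in HT-29 at 24 h, and ABCB1 -0.02 at 4 h, as it also had with median centring. Leaving out 1 array at a time gave, in HT-29 at 4 h, ranges of -0.14 to 0 for ABCC1, -1.08 to 0.15 for ABCC2, -1.11 to 1.95 for ABCC3, -0.24 to 0.23 for ABCB1 and -1.23 to 0.74 for ABCG2. In HT-29 at 24 h they were -0.27 to 0.04 for ABCC1, -0.14 to 0.09 for ABCC10, -0.16 to 0.14 for ABCB1 and -0.90 to 1.05 for ABCG2. In HCT116 at 4 h they were -0.04 to 0.25 for ABCC1, -0.01 to 0.38 for ABCC2, -0.01 to 0.55 for ABCC4 and -0.26 to 0.06 for ABCB6. In HCT116 at 24 h they were -0.31 to 0.24 for ABCC4, -0.05 to 0.25 for ABCC5 and -0.83 to 0.03 for ABCG2. Signal over background per spot was not analysed here, so low values have no floor.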
